A study of Mus musculus with 16 samples.

Results

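The kinesin superfamily was taken as every protein-coding gene whose mouse symbol is Kif followed by a digit, which gave 38 of 21887 protein-coding genes in a RefSeq table of GRCm38.p6 (the mm10 assembly). Binding of the transcription factors Foxn3, Foxn4 and Rfx3 at these genes was read from 3 deposited peak lists, 1 per factor, of 2794 (Foxn3), 2956 (Foxn4) and 3981 (Rfx3) peaks. The lists came from CUT&RUN, in which an antibody on a chromatin protein directs micrococcal nuclease to cut out the DNA beside it for sequencing. The cells were dissociated from pooled retinas of CD-1 mice, an outbred stock, at embryonic day 16, with about 300000 cells per assay. The groups were anti-Foxn3 (4 libraries, in 2 experiments), anti-Foxn4 (2 libraries) and anti-Rfx3 (2 libraries), with 4 rabbit IgG libraries for Foxn3, 2 rabbit IgG libraries for Rfx3 and 2 mouse IgG libraries for Foxn4. Nuclease digestion took 1 h, or about 12 h for Foxn4 and mouse IgG, so the factor and the digestion time cannot be told apart where Foxn4 is compared. No list separates libraries, and the IgG libraries were not analysed here. Values below therefore have no spread between replicates, and read depth is unknown.

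Kinesins are motors that use ATP to move along microtubules or to take their ends apart. Some carry vesicles and organelles, in neurons mainly along axons and dendrites, some build and divide the mitotic spindle, and some work in cilia, where kinesin-2 drives cargo from the base to the tip. In the retina the photoreceptor outer segment is a modified cilium that depends on this transport, while dividing progenitors need the mitotic motors. Rfx3 belongs to the RFX family, winged-helix factors that bind paired X-box sites and control many ciliary genes. Foxn3 and Foxn4 are forkhead factors, and Foxn4 is known for its part in the formation of amacrine and horizontal cells.

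A gene was counted as bound in a list where the midpoint of a peak lay within 1 kb of either annotated end of the gene. Rfx3 peaks met this at 11 of the 38 kinesin genes (28.9%, 95% exact Clopper-Pearson interval 15.4% to 45.9%), against 10.6% of all protein-coding genes. Foxn3 peaks did so at 6 (15.8%, 6.02% to 31.3%), against 8.82% of all genes, a share inside the interval of the kinesins. Foxn4 peaks did so at 2 (5.26%, 0.644% to 17.7%), close to the 4.84% of all genes. The same 11 genes made up the set bound in at least 1 list (28.9%, against 12.8% of all genes), since every kinesin gene with a Foxn3 or Foxn4 peak also had an Rfx3 peak. Kif24 alone was bound in every list, 1 of 38 (2.63%, against 3.06% of all genes). The intervals, here and for the role groups, treat each gene as an independent draw from 1 list and cover counting error only. Genes are not replicates of binding, and no test was run between the kinesins and other genes.

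The bound genes were Kif3b, Kif6, Kif9, Kif17 and Kif24 among the ciliary kinesins, Kif14, Kif18a, Kif18b, Kif20a and Kif23 among the mitotic kinesins, and Kif1b among the transport kinesins. Of the 6 genes in the Foxn3 list, 6 were in the Rfx3 list (for all genes, 85.7% of the Foxn3 genes). Of the 11 genes in the Rfx3 list, 6 were in the Foxn3 list (54.5%, for all genes 71%) and 2 in the Foxn4 list (18.2%, for all genes 34%). The direction of transcription was known for 10 of the 11 bound genes, and at 10 of them the peaks lay at the end where transcription starts. Of the 19 peaks at bound genes, 14 had their midpoint within 100 bp of the gene end. The farthest peak counted was that of Rfx3 at Kif20a, 506 bp from the end, and the nearest left out were those of Foxn3 and Rfx3 at Kif3a, 1598 and 1677 bp from the end.

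**Figure D1:**
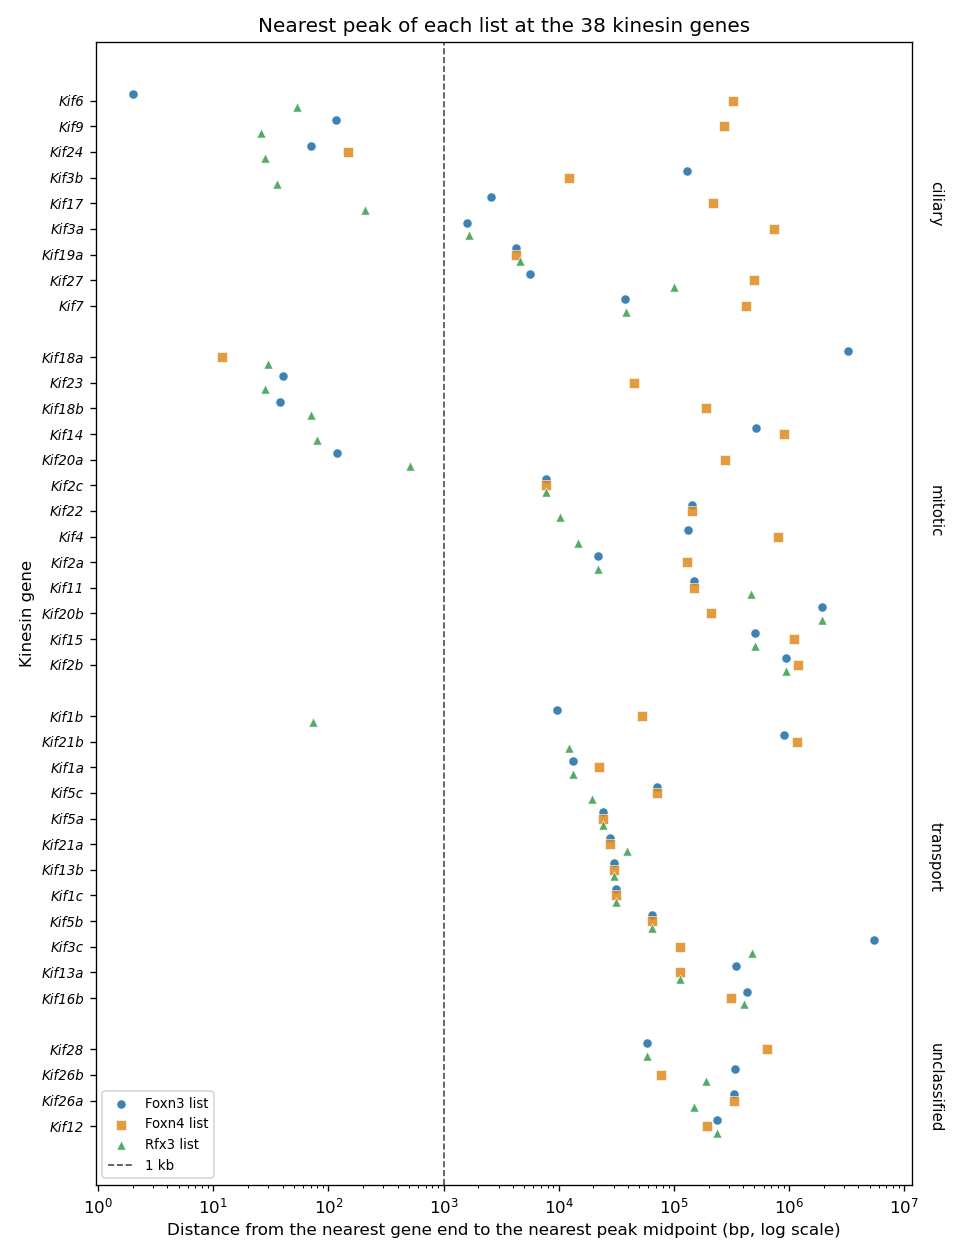
Distance in bp, on a log axis, from the nearest end of each of the 38 kinesin genes to the nearest peak midpoint of each list, with genes grouped by role and a dashed line at 1 kb. Peaks left of the line are those of 5 ciliary genes, 5 mitotic genes and Kif1b, and the next are those at Kif3a, 1598 and 1677 bp away.

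Promoter sequences that these peaks overlapped are shown for 8 bound genes and for Kif3a, so that the shared letters can be read. Not every midpoint lies in the window shown, and that of Rfx3 at Kif17 was 208 bp before the start. Each sequence shown held an RFX motif, a near match to one or a repeat. Kif1b, with a peak over its entry but none of these, is not shown. They come from RefSeq promoter entries of GRCm38.p6, available for 31 of the 38 genes, and run from 150 bases before the transcription start to 30 bases from it. Capitals mark the motif GTTGCC, an arm of an X-box, every best near match to the paired RFX motif where it reached 8 of 10 letters, and in Kif3b a repeat of 16 bases. The ciliary genes Kif3a, Kif3b and Kif17 encode kinesin-2 motors. Their windows are chr11:53567219-53567398 (plus strand), chr2:153291266-153291445 (plus strand) and chr4:138262101-138262280 (plus strand).
Kif3a: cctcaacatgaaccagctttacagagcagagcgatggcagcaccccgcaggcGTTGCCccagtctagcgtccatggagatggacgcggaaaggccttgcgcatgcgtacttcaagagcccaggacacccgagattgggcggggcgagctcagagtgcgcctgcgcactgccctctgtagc
Kif3b: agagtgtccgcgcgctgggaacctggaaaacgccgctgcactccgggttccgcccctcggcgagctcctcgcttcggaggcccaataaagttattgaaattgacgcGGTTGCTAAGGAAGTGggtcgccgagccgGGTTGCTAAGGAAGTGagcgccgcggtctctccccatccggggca
Kif17: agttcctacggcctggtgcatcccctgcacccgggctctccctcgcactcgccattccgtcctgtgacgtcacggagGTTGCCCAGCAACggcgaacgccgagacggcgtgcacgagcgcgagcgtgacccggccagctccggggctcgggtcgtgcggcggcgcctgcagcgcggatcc

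The ciliary genes Kif6, Kif9 and Kif24 had peaks of 2 or 3 factors over the windows chr17:49615022-49615201 (plus strand), chr9:110476808-110476987 (plus strand) and chr4:41464819-41464998 (minus strand).
Kif6: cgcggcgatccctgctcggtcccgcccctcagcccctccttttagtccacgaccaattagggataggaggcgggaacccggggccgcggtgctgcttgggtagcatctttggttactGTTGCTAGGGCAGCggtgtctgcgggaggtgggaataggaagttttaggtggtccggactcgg
Kif9: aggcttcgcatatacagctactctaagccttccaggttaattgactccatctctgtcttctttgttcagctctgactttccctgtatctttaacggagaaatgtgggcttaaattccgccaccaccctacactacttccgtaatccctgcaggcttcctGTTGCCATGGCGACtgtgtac
Kif24: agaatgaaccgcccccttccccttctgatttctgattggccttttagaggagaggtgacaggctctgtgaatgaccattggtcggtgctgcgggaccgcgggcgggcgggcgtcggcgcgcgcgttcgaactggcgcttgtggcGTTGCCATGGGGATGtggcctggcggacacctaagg

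The mitotic genes Kif18a, Kif18b and Kif23 are shown for comparison, from the windows chr2:109280588-109280767 (plus strand), chr11:102925095-102925274 (minus strand) and chr9:61946770-61946949 (minus strand).
Kif18a: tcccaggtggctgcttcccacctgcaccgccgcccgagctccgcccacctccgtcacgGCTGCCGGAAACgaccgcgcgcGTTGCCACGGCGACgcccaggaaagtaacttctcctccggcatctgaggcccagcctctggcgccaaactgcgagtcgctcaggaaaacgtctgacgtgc
Kif18b: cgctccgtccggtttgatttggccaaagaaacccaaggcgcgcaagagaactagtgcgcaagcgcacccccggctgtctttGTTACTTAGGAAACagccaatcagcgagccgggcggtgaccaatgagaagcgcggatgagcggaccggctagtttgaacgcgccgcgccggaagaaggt
Kif23: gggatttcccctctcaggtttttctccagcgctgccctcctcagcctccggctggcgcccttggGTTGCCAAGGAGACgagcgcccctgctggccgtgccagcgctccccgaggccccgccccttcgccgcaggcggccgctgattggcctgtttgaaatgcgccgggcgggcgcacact

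Motifs were searched on both strands in promoter entries of 300 bases (250 before the start and 50 from it). GTTGCC was present in 12.6% of 21263 entries of protein-coding genes, in 27% of those that an Rfx3 peak overlapped and in 26.5% of those that a Foxn3 peak overlapped. Among the kinesins it was present in 6 of 10 genes whose promoter entry met a peak (Kif3a, Kif9, Kif17, Kif18a, Kif23 and Kif24) and in 4 of 21 whose entries met none. Counted by entry, as the shares above are, it was in 7 of 12 (58.3%) and 4 of 23 (17.4%). Kif1a, Kif1b, Kif2a and Kif9 have more than 1 entry, whose bases can overlap. The full paired motif, GTTNCC followed after 0 to 3 bases by GGNAAC, was in none of the 35 kinesin entries and in 0.762% of all entries. A search that allowed 1 mismatch among its 10 fixed letters was added after the sequences had been seen. It found 7 of the 35 kinesin entries (20%), against 5.58% of all entries. Of the 12 kinesin entries met by a peak it found 6 (50%), against 20.5% of all entries met by an Rfx3 peak. The genes were Kif9 (2 entries that share 1 match), Kif17, Kif18a, Kif18b and Kif23, all with an Rfx3 peak, and Kif3c, which had no peak there. GTTGCC can be an arm of the paired motif, so these counts overlap. Forms of the RFX motif that allow other letters at a fixed position were not searched, apart from the mismatches counted here.

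At the 5 genes with a peak, each such match lay inside the Rfx3 peak. At Kif18b the match was 18 bp from the midpoint of the Rfx3 peak and 14 bp from that of the Foxn3 peak. At Kif23 it was 40 and 29 bp away, while Kif18a had 2 equally good matches. These lay 57 and 34 bp from the Rfx3 midpoint and 75 and 52 bp from the Foxn4 midpoint. The match was farther from the midpoints at Kif9, 210 bp for Rfx3 and 119 bp for Foxn3, and at Kif17, 142 bp for Rfx3. Kif6 and Kif24 had 8 of the 10 letters, as did Kif1a, Kif2a, Kif5c, Kif14 and Kif26b, whose entries met no peak, and 35.2% of all entries reach this. The Kif6 match lay 6 bp from the Rfx3 midpoint and 45 bp from the Foxn3 midpoint.

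Forkhead motifs were searched in the same entries. GTAAACA, the motif of most forkhead factors, was in none of the 35 kinesin entries and in 3.01% of all entries, and its shorter core TAAACA was in 1, that of Kif2c, which had no peak there (11.5% of all entries). GACGC, a second motif that some FoxN factors bind, was in the entries of 6 of 10 kinesin genes met by a peak (Kif1b, Kif3a, Kif3b, Kif18a, Kif23 and Kif24) and in those of 10 of 21 met by none. Counted by entry, GACGC was in 7 of 12 (58.3%) and 11 of 23 (47.8%). It occurs in 33.4% of all entries and in 57.5%, 57.1% and 55.2% of those met by a Foxn3, a Foxn4 and an Rfx3 peak. At Kif3a 2 copies lay 12 and 3 bp from the Foxn3 midpoint. A match describes letters only.

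**Figure D2:**
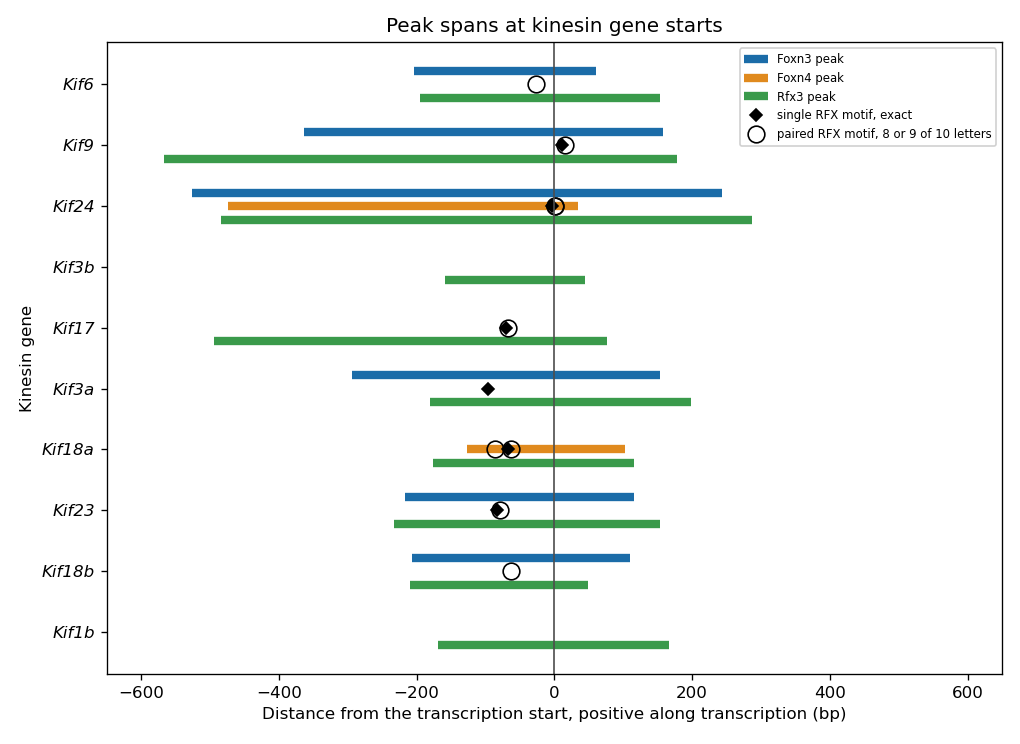
Extent of the peaks of each list around the transcription start at the 10 kinesin genes whose promoter entry met a peak, in bp along transcription, with exact single RFX motifs (diamonds) and near matches to the paired motif (circles). Peaks of different lists at a gene cover the same place, and each marked motif lies inside the Rfx3 peak.

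The ciliary kinesins had the highest share of bound genes of the role groups, with intervals that overlap. With Kif2a and Kif13b counted as ciliary, 5 of 11 ciliary, 5 of 12 mitotic and 1 of 11 transport genes were bound. That grouping brings the ciliary and mitotic shares closer. Of the 9 ciliary kinesin genes, Rfx3 bound 5 (55.6%, 95% exact interval 21.2% to 86.3%), Foxn3 3 (33.3%, 7.49% to 70.1%) and Foxn4 1 (11.1%, 0.281% to 48.2%). The score of a peak is the authors' own, and scores were compared only as ranks, the share of the peaks of the same list with a lower score. Kif9 (110476738 to 110525174 on chromosome 9), a motor of the central apparatus of motile cilia, had a Foxn3 peak at 110476594 to 110477116, which outranked 97.6% of its list (authors' score 286). Its Rfx3 peak at 110476392 to 110477136 outranked 93.7% (score 504). The Rfx3 rank was the highest for Rfx3 among bound kinesin genes. An end of Klhl18 lies 27 bp from the Rfx3 midpoint and 118 bp from the Foxn3 midpoint, against 26 and 117 bp for Kif9, so the peaks cannot be given to either gene by distance.

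Kif24 (41389964 to 41464919 on chromosome 4), which acts at the mother centriole to restrain cilium formation, was the only kinesin gene with a peak of each factor within 1 kb of an end. The Foxn3 peak at 41464604 to 41465374 outranked 92.9% of its list and the Rfx3 peak at 41464561 to 41465332 outranked 82.3%. The Foxn4 peak at 41464814 to 41465322 lay within both and was low in its list, outranking 5.2%. An end of Nudt2 lies closer to the Foxn4 midpoint (13 bp) than that of Kif24 does (149 bp), and 92 bp from the Foxn3 and 134 bp from the Rfx3 midpoint. With each peak given only to its nearest gene, Kif24 kept its Foxn3 and Rfx3 peaks and lost the Foxn4 peak.

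Kif6 (49615098 to 49909847 on chromosome 17), needed by the motile cilia of ependymal cells, had a Foxn3 peak at 49614969 to 49615232 whose midpoint was 2 bp from the gene start (rank 85.6%). The Rfx3 peak at 49614977 to 49615325 was 53 bp from it (rank 68.7%). Both peaks were narrow, 264 and 349 bp, and their midpoints were 51 bp apart. Kif6 is a gene of 294750 bp and held a second Rfx3 peak inside, 76350 bp from its start (rank 37.7%).

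The ciliary kinesin-2 genes are Kif3a, Kif3b and Kif17, while Kif3c, another kinesin-2 gene, is listed with the transport kinesins and had its nearest Rfx3 peak 481146 bp away. Kif3b (153291395 to 153333390 on chromosome 2), the motor subunit that pairs with Kif3a, had an Rfx3 peak at 153291257 to 153291460, 36 bp from the gene end and 204 bp wide (rank 75.7%), with the nearest Foxn3 peak 130169 bp away. Kif17 (138262251 to 138301973 on chromosome 4), the homodimeric kinesin-2, had an Rfx3 peak at 138261757 to 138262328, 208 bp before its start (rank 28.5%). The nearest Foxn3 peak to Kif17 lay 2595 bp beyond its other end (rank 82%). Kif3a (53565701 to 53604248 on chromosome 11) was unbound by the rule, since its peaks lay 1598 and 1677 bp inside its annotated end. Measured from its RefSeq promoter entry, the Foxn3 peak at 53567075 to 53567523 was 70 bp from the start (rank 88.1%) and the Rfx3 peak at 53567188 to 53567568 was 9 bp from it (rank 52.2%). Rfx3 was thus at the start of both subunit genes of the heterodimer, and Foxn3 at that of Kif3a. Kifap3, the gene of its accessory subunit, had no peak of any list within 1 kb of a gene end.

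Promoter entries gave a start for 31 kinesin genes. Under that rule Rfx3 bound 10 of the 31 (32.3%), against 11.6% of the 17492 genes with an entry. Foxn3 bound 6 (19.4%, against 9.67%) and Foxn4 2 (6.45%, against 5.29%). Kif3a entered in both the Foxn3 and the Rfx3 list. Kif14 left, because its Rfx3 peak lay 80 bp from the outermost start but 1626 bp from the start of its entry. Kif20a has no entry.

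Kif7, Kif19a and Kif27 had no peak within 1 kb. Kif7 sets the tip of the primary cilium and regulates Gli proteins in Hedgehog signalling. Its nearest peaks were those of Foxn3 at 37958 bp and of Rfx3 at 38043 bp. Kif19a, which limits the length of motile cilia, had a peak of each factor 4295 to 4579 bp beyond an end, the Rfx3 peak outranking 88.3% of its list. Kif27, a motile cilium relative of Kif7, had a Foxn3 peak 4158 bp before the start of its promoter entry (rank 28.8%) and its nearest Rfx3 peak at 100705 bp.

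Mitotic kinesins had peaks of each factor. Of the 13 mitotic kinesin genes, Rfx3 bound 5 (38.5%, 13.9% to 68.4%), Foxn3 3 (23.1%, 5.04% to 53.8%) and Foxn4 1 (7.69%, 0.195% to 36%). Kif20a (34624624 to 34633277 on chromosome 18), a motor of the central spindle, had the highest Foxn3 rank of the bound kinesin genes, 97.7%, for a peak of 1087 bp at 34623962 to 34625048. The Rfx3 peak there, at 34623959 to 34624277, was 319 bp wide, outranked 40.2% and had its midpoint 387 bp from that of Foxn3. An end of Brd8 lies 358 bp from the Foxn3 midpoint, against 119 bp for Kif20a.

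Kif23 (61917277 to 61946810 on chromosome 9), the motor of the centralspindlin complex in cytokinesis, had Foxn3 and Rfx3 midpoints 11 bp apart, the closest pair among the bound genes. Its Foxn3 peak at 61946683 to 61947016 outranked 83.7% of its list and its Rfx3 peak at 61946646 to 61947031 outranked 82.3%. Kif18b (102905518 to 102925134 on chromosome 11), a kinesin that shortens astral microtubules, had both factors at low rank, 28.8% for Foxn3 at 102925014 to 102925331 and 22.7% for Rfx3 at 102925075 to 102925333. The Rfx3 rank of Kif18b was the lowest for Rfx3 among bound kinesin genes.

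Kif18a (109280738 to 109341749 on chromosome 2), which damps chromosome movement at the metaphase plate, had Foxn4 and Rfx3 without Foxn3. The Foxn4 peak at 109280611 to 109280841 was 12 bp from the start (rank 57.4%), lay wholly inside the Rfx3 peak at 109280562 to 109280854 (rank 66.3%) and had its midpoint 18 bp from it. Mettl15 also lies within 1 kb, 604 bp from the Foxn4 midpoint. Kif14 (136466301 to 136555938 on chromosome 1), a cytokinesis motor, had Rfx3 only, at 136465995 to 136466448 (rank 88.4%). Kif2a, Kif2b, Kif2c, Kif4, Kif11, Kif15, Kif20b and Kif22 had no peak within 1 kb, and their nearest peak of any list lay 7708 bp (Kif2c) or farther away. Kif11, the motor that pushes spindle poles apart, had its nearest peak at 149344 bp.

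Transport kinesins had 1 bound gene. Of the 12 transport kinesin genes, Rfx3 bound 1 (8.33%, 0.211% to 38.5%), while Foxn3 and Foxn4 bound none (0%, up to 26.5% each). Kif1b (149176319 to 149307773 on chromosome 4), which carries mitochondria and synaptic vesicle precursors, had an Rfx3 peak at 149307531 to 149307867, 74 bp from the gene end (rank 41.6%). Kif1a, Kif1c, Kif3c, Kif5a, Kif5b, Kif5c, Kif13a, Kif13b, Kif16b, Kif21a and Kif21b had none within 1 kb, and neither had the unclassified genes Kif12, Kif26a, Kif26b and Kif28. The exact intervals of the Rfx3 share in ciliary (21.2% to 86.3%), mitotic (13.9% to 68.4%) and transport genes (0.211% to 38.5%) overlap, and the difference between roles was not tested.

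**Figure D3:**
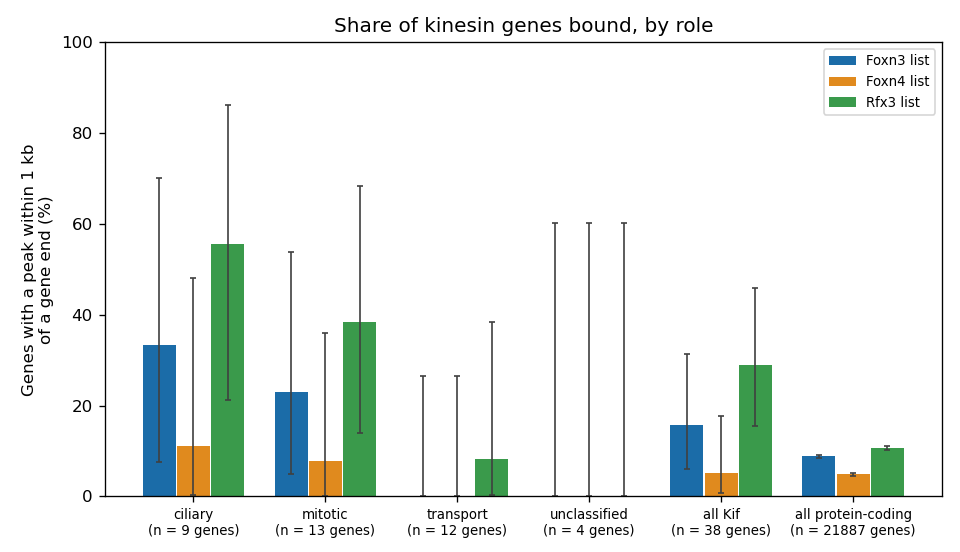
Percent of genes with a peak midpoint within 1 kb of a gene end, by role and list, beside all kinesin genes and all protein-coding genes; bars show the share and lines the 95% exact interval. Rfx3 reached 55.6% of ciliary, 38.5% of mitotic and 8.33% of transport genes, with overlapping intervals.

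Peaks inside the genes gave another picture of the transport kinesins. Peaks whose midpoint lay inside a gene and over 1 kb from both ends were found in at least 1 list at 11 of 38 kinesin genes (28.9%), against 6.88% of all protein-coding genes. Kinesin genes were longer, with a median of 47.5 kb against 17.2 kb for all genes. Of the 12 transport genes 6 had one (Kif1a, Kif1b, Kif5c, Kif13b, Kif21a and Kif21b), against 12.7% of the 6625 protein-coding genes in the same range of length (31.6 to 283 kb). Transport genes were still longer than that set, with medians of 102 and 64.1 kb, and the part of length was not tested. Of the ciliary genes 4 of 9 had an inside peak (Kif3a, where these are the peaks at its promoter entry, Kif6, Kif19a and Kif27), the unclassified genes 1 of 4, and the mitotic genes 0 of 13. Shares of genes of like length were not computed for these groups, whose median lengths were 42 kb (ciliary), 44 kb (unclassified) and 45.5 kb (mitotic).

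At Kif1a, a motor of synaptic vesicle precursors, all 3 factors had a peak at about the same place inside the gene, Foxn3 at 93079709 to 93080099, Foxn4 at 93079704 to 93079941 and Rfx3 at 93079577 to 93080148 on chromosome 1. Ranks there were 13.8%, 29.3% and 26.5%, and the midpoints lay 2576 to 2658 bp inside the downstream of its 2 promoter-table starts. A second place upstream, 13179 bp from the gene end, had a Foxn3 peak of rank 95.3% and an Rfx3 peak of rank 99%. Kif13b likewise had all 3 factors inside, at 64682564 to 64682990 for Foxn3 on chromosome 14, with ranks of 19% for Foxn3, 44.1% for Foxn4 and 11.2% for Rfx3. Kif21a had Foxn4 (rank 5.2%) and Rfx3 (61.1%) over the same bases, from 90972207 on chromosome 15. No exon annotation was used here.

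Ranks at the bound genes varied widely. In the Foxn3 list they ran from 28.8% to 97.7%, with 5 of 6 above 50%, and the median peak at any gene end had a rank of 52.8%. In the Rfx3 list they ran from 22.7% to 93.7%, with 7 of 11 above 50% (median at any gene end 46.4%). By role, the Rfx3 median was 75.7% for the 5 ciliary and 66.3% for the 5 mitotic genes, with ranges of 28.5% to 93.7% and 22.7% to 88.4% that overlap almost fully.

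**Figure D4:**
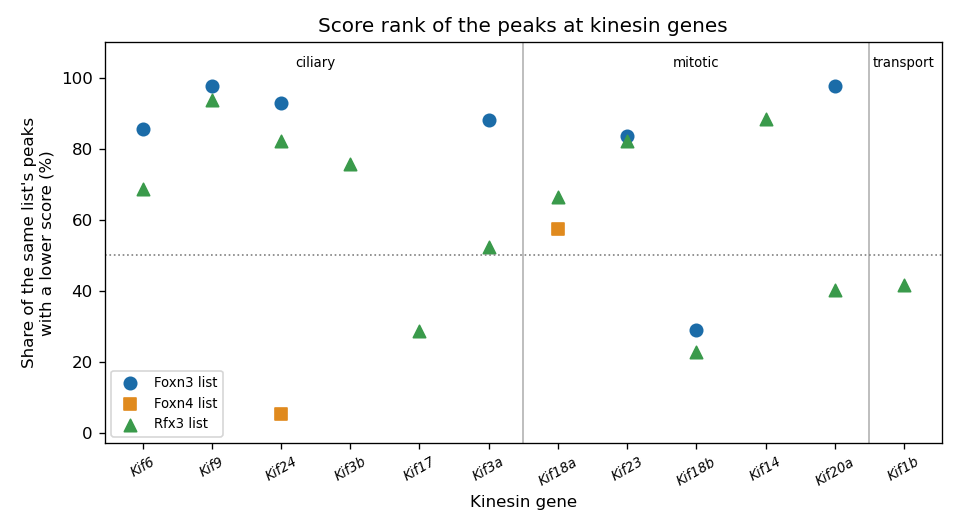
Score rank of each peak at the 11 bound kinesin genes and Kif3a, as the percent of peaks in the same list with a lower score; each point is 1 peak and the dotted line marks 50%. Foxn3 points lie above 80% except at Kif18b (28.8%), while Rfx3 points spread from 22.7% to 93.7%.

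Absence from the Foxn3 list needs care, since peak numbers in that list run to 3645 with 851 absent. Beside Kif1b no number was absent between the Foxn3 peaks that flank the gene. Between those that flank Kif3b 1 number was absent, over 1.42 Mb. Around Kif14, Kif17 and Kif18a 3 each were absent, over unlike spans of 2.12, 0.438 and 12.3 Mb. Whether an absent number was a peak at these genes was not determined.

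Genes that work with kinesins were read in the same way from 4 gene lists, chosen with earlier results of these data known. Of all protein-coding genes, 12.8% were bound in at least 1 list, 8.82% by Foxn3, 10.6% by Rfx3 and 4.84% by Foxn4. Among partners of ciliary kinesins 10 of 16 were bound in at least 1 list, 8 by Foxn3, 7 by Rfx3 and 1 by Foxn4. Stk36, the kinase that pairs with Kif27, had Foxn3 19 bp (rank 98.9%) and Rfx3 6 bp (87.6%) from an end. Hydin, of the central apparatus, had Foxn3 at 45 bp (97.4%) and Rfx3 at 24 bp (98.7%), and Spef2, of the same structure, had both as well. Ccp110, the centriole cap protein that Kif24 binds, had both, and so did Sufu and Ift52. Gli1 and Ptch1, targets of Hedgehog signalling, had Foxn3 only, Mak had Rfx3 only and Ift20 had Foxn4 only. The partners Gli2, Gli3, Smo, Cep97, Cfap221 and Cilk1 were bound in none of the lists.

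Of 26 genes of cytoplasmic dynein 1, dynactin and their adaptors, 6 were bound in at least 1 list (12.8% of all genes), 6 by Foxn3, 5 by Rfx3 and 2 by Foxn4. The light chain gene Dynll1 and the adaptor Bicd2 had all factors, Dynlrb2, Dctn3 and Actr1a had Foxn3 and Rfx3, and Ndel1 had Foxn3 only. Of 17 kinesin light chain and cargo adaptor genes, 2 were bound, Klc2 and Fez1, both by Foxn3 and Rfx3, a share near the 12.8% of all genes. Of 7 kinesin genes with other symbols, 2 were bound, Kifc1 by all 3 factors and Kifc5b by Foxn4 and Rfx3. These 2 genes are close copies of each other, so reads could be assigned to either.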

How the data were processed

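The authors deposited 1 peak list per antibody, each with the position of every peak and a score whose unit is not stated. Scores served for ordering peaks inside a list and for a median filter. The build is mm10, per the file headers. The submitters' processing notes name cutadapt, Bowtie2, UMI-tools, bedtools and SEACR without their roles; which libraries entered a list is not given in the sources used here. Peak coordinates were written counting from 1 and compared with gene ends of RefSeq GRCm38.p6 in Python 3.11.15 (pandas 2.3.3, scipy 1.17.1). The code was run on simulated peaks, with the right answer set by the same distance rule. That checks the code only, and not whether a peak belongs to a gene. Every bound member is named, and unbound members are named by role. Roles were assigned from general knowledge; Kif12, Kif26a, Kif26b and Kif28 were left unclassified. The members, roles and lists were chosen with earlier results of these data known. Peaks of 2 lists were shared where they overlapped by 1 bp. Alternatives were distances of 500 bp and 5 kb, peaks at or above the median score, the peak edge, the nearest gene only, promoter-table starts and other role groups. No test was run, since each antibody has a single list. The IgG libraries were not analysed here.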

Additional observations from a re-analysis of the deposited data

How the results depend on the processing

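Of 52 recomputed counts, 44 stayed within 1.5 times the reported count. This compares counts and not shares, and some settings also changed the number of genes in a group or the share of all genes. With peaks at or above the median score of their list, Rfx3 bound 7 kinesin genes, all among the 11, Foxn4 bound 1, no gene (0) was bound in every list and no transport gene (0) was bound; all genes fell too, to 5.19% for Rfx3 and 2.85% for Foxn4. With each peak given to its nearest gene only, Foxn4 bound 1 kinesin gene and 0 were bound in every list, since the Foxn4 peak at Kif24 is nearer to Nudt2. At 5 kb, 2 genes were bound in every list, Kif24 and Kif19a. With promoter-table starts, 6 of 8 ciliary genes were bound, with Kif3a added and Kif19a not covered. By the same starts 3 of 12 mitotic genes were bound, without Kif14 and with Kif20a not covered. No paired analysis was possible because each antibody has 1 list that does not separate its libraries, so leaving out a library could not be tried either. Depth per library is unknown, so absence of a peak is absence from a list and not absence of binding.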

Other observations

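The Kif3b promoter has no close match to the paired RFX motif in the form searched here, 7 of 10 letters at best. Its Rfx3 peak outranked 75.7% of the list. The promoter does hold an exact repeat of 16 bases, GGTTGCTAAGGAAGTG, centred about 36 and 8 bp before the transcription start. Both copies lie inside the Rfx3 peak (153291257 to 153291460 on chromosome 2). A repeat of this length without overlap was present in 1.73% of all 21263 promoter entries of protein-coding genes, simple repeats included. Each copy of the repeat itself holds a best match of 7 of 10 letters to the paired RFX motif. GTTGCT in the copies, from 153291373 and 153291402, differs from the searched arm GTTNCC in its last letter only. The entry has 8 equally good matches, and some of them lie outside the repeat. No kinesin entry had a best match of fewer than 7 letters. The repeat was looked for after the sequence had been seen.

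Peaks of all 3 factors beside Kif2c, 7708 to 7734 bp before the gene, differed in place within their lists, with ranks of 96.6% for Foxn4, 26.7% for Foxn3 and 0.8% for Rfx3. At Kif24, where Foxn4 was the lowest of the 3, ranks were 5.2% for Foxn4, 92.9% for Foxn3 and 82.3% for Rfx3. Ranks from lists of different lengths show an order within each list only.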
